A study of Mus musculus with 22 samples.

Results

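The genes described here are 42 genes of the liver's responses to misfolded protein and to amino acid shortage, chosen by name and divided by role into an integrated stress response group of 15 genes, an endoplasmic reticulum (ER) chaperone group of 18 genes and a heat shock group of 9 genes. Of the 42, 41 had a row among the 24011 genes of the arrays, and Phgdh, an enzyme of serine synthesis in the first group, is not analysed here. Levels were measured in total RNA from whole liver of 22 female C57BL/6J mice aged 12 weeks, with 1 Affymetrix MoGene 2.0 ST array per mouse. The groups were wild type on regular chow (WT_chow, n = 5), wild type on chow with 0.1% ursodeoxycholic acid (WT_UDCA, n = 6), Cyp2c70 knockout on regular chow (KO_chow, n = 5) and Cyp2c70 knockout on chow with 0.1% ursodeoxycholic acid (KO_UDCA, n = 6). Ursodeoxycholic acid (UDCA), a hydrophilic bile acid, was fed for 7 weeks from the age of 5 weeks. The labels name the knockout KO-CYP2C70 and do not describe the allele. Cyp2c70 is the mouse liver cytochrome P450 that makes muricholic acids, so the bile acids of mice without it are more hydrophobic. Per its title, the study asked whether UDCA reverses bile duct disease and biliary fibrosis in such mice.

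Secretory cells such as hepatocytes fold large amounts of protein in the ER. When folding fails there, the sensors Ire1, Atf6 and Perk raise chaperones and slow translation, and the part that runs through Perk and the translation factor eIF2alpha joins the responses to amino acid shortage and other stresses in the integrated stress response, whose central transcription factor is Atf4. The heat shock response, driven by Hsf1, raises chaperones of the cytosol and nucleus.

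Many ER chaperone genes share a promoter element, so the matches to it are shown before the levels. RefSeq promoter windows (assembly GRCm38.p6, 250 bases before to 50 bases after the annotated start) were searched on both strands for the ER stress response element, spelled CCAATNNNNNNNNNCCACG, to which the factors NF-Y and Atf6 bind. It stood in 7 of the 16 ER chaperone genes with a window (43.8%), and in 37 of all 27025 genes (0.137%). The element was searched because ER chaperone genes are known to share it, so these shares are a description and not a test. The sites are printed 5′ to 3′ on the strand that carries the element, with the fixed letters of the element in capitals and 5 bases on each side.
Hspa5 (chr2:34772020-34772048, plus strand): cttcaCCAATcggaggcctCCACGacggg
Hsp90b1 (chr10:86705633-86705661, minus strand): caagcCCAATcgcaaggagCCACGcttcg
Hsp90b1 (chr10:86705528-86705556, plus strand): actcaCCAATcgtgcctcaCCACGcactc
Pdia6 (chr12:17266486-17266514, plus strand): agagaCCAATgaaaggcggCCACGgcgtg
Dnajc3 (chr14:118937822-118937850, plus strand): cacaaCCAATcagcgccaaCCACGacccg
Creld2 (chr15:88819515-88819543, minus strand): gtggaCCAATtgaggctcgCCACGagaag
Calr (chr8:84847070-84847098, plus strand): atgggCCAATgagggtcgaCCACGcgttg
Canx (chr11:50325795-50325823, minus strand): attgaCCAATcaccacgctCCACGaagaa
All 7 of these genes were called higher in KO_chow than in WT_chow by the test described below, which called 7.69% of all genes higher and 6.03% lower. That test called 14 of the 18 ER chaperone genes higher. Among those with a window but without this element, Pdia3, Pdia4, Dnajb11, Xbp1 and Sdf2l1 were higher, and Dnajb9, Herpud1, Edem1 and Sel1l did not pass. Outside the ER chaperone group, 24 other measured genes held the element, and of these 4 were higher (Adcy3, Derl3, Gm20560 and Spats2l), 1 was lower (Acacb) and 19 did not pass the test, with a median log2 difference of 0.012. Many of these 24 had little signal, with WT_chow means below the median gene of every WT_chow array (4.85 log2 units at the lowest). Gm20560 was among them, with means of 2.93 in KO_chow and 2.38 in WT_chow. The genes with the element were gathered after the levels were known, so these counts are a description.

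A shorter element, ATTGGNCCACG, stood in Dnajb11 and Herpud1, and in 12 of the 27025 genes (0.0444%). These sites are shown because Dnajb11 rose in KO_chow and Herpud1 did not pass the test.
Dnajb11 (chr16:22857847-22857867, plus strand): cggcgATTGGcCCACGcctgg
Herpud1 (chr8:94386372-94386392, plus strand): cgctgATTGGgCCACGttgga
For the integrated stress response, the core of the amino acid response element, TGATGNAA, to which Atf4 binds with a partner, was found in 4 of 13 genes with a window (30.8%), against 4.51% of all genes. Herpud1 held it too.
Atf3 (chr1:191183431-191183448, plus strand): cttggTGATGcAAgtgcg
Asns (chr6:7693220-7693237, minus strand): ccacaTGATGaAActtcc
Trib3 (chr2:152344034-152344051, plus strand): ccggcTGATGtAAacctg
Chac1 (chr2:119351044-119351061, minus strand): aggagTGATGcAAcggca
Herpud1 (chr8:94386312-94386329, minus strand): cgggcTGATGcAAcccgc
Of these 5 genes, Atf3 and Asns were higher in KO_chow, Trib3 was lower, and Chac1 and Herpud1 did not pass the test. The heat shock element searched, GAANNTTCNNGAA, was found in Hsph1 alone of the 8 heat shock genes with a window and in 0.662% of all genes. No window was at hand for Eif4ebp1, Eif4ebp3, Manf, Hyou1 and Hspa8. No matches overlapped. A match is a run of letters and not a measured binding site. Only exact spellings within the window were searched, so a missing match does not show that a gene lacks an element.

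Where exact matches stand is seen in the 250 bases before the start of 3 genes with different calls. Hspa5 was higher in KO_chow than in WT_chow and lower in KO_UDCA than in KO_chow. Asns was higher in KO_chow than in WT_chow, and Herpud1 passed the test in no comparison. Exact matches to any of the elements searched are in capitals, and variant spellings are not marked.
Asns (chr6:7693210-7693459, minus strand): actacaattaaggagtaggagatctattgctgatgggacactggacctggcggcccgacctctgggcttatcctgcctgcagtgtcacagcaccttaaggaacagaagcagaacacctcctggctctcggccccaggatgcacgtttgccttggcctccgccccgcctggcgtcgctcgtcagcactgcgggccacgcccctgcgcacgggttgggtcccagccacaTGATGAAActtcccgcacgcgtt
Hspa5 (chr2:34771840-34772089, plus strand): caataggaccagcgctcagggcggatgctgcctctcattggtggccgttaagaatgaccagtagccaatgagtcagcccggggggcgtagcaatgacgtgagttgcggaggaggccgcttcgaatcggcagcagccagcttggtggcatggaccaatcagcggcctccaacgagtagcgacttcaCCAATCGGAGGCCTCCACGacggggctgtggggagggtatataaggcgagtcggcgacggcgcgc
Herpud1 (chr8:94386179-94386428, plus strand): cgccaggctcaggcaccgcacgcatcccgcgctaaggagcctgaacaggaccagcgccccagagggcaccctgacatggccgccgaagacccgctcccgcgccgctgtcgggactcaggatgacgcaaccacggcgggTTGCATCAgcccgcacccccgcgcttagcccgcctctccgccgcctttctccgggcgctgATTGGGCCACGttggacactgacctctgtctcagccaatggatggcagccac

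Some facts of the whole data set bear on the values. Cyp2c70 ran from 11.22 to 11.62 log2 units over the wild-type mice and from 10.27 to 10.83 over the knockout mice, with no overlap between genotypes. Signal remained in the knockout, and the sources used here do not place its probes relative to the altered part of the gene. On the first principal component of all genes, which held 26.69% of the variance, KO_chow mice 2 and 5 stood at 53.37 and 51.92, KO_chow mouse 3 at 32.48, KO_chow mice 1 and 4 at 18.63 and 15.67, and the other 17 mice between -13.12 and -0.66. All 8 hepatocyte markers lay above the array median on every chow-fed mouse's array, and 0 of the 8 passed the test in KO_chow vs WT_chow.

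Lack of Cyp2c70 on chow went with higher levels of most ER chaperones. In the test used throughout, a limma fit over all 24011 genes with calls at an adjusted p below 0.05, 23 of the 41 measured members differed between KO_chow and WT_chow, 21 higher (7.69% of all genes were called higher) and 2 lower (6.03% of all genes). The median log2 difference over the 41 was 0.346, against -0.037 over all genes. By role, 14 of 18 ER chaperone genes were higher and 0 lower (median 0.471), 4 of 14 integrated stress response genes were higher and 2 lower (median 0.249), and 3 of 9 heat shock genes were higher and 0 lower (median 0.29). In whole liver, a gene's level per hepatocyte and the share of each cell type in the tissue cannot be told apart.

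**Figure D1:**
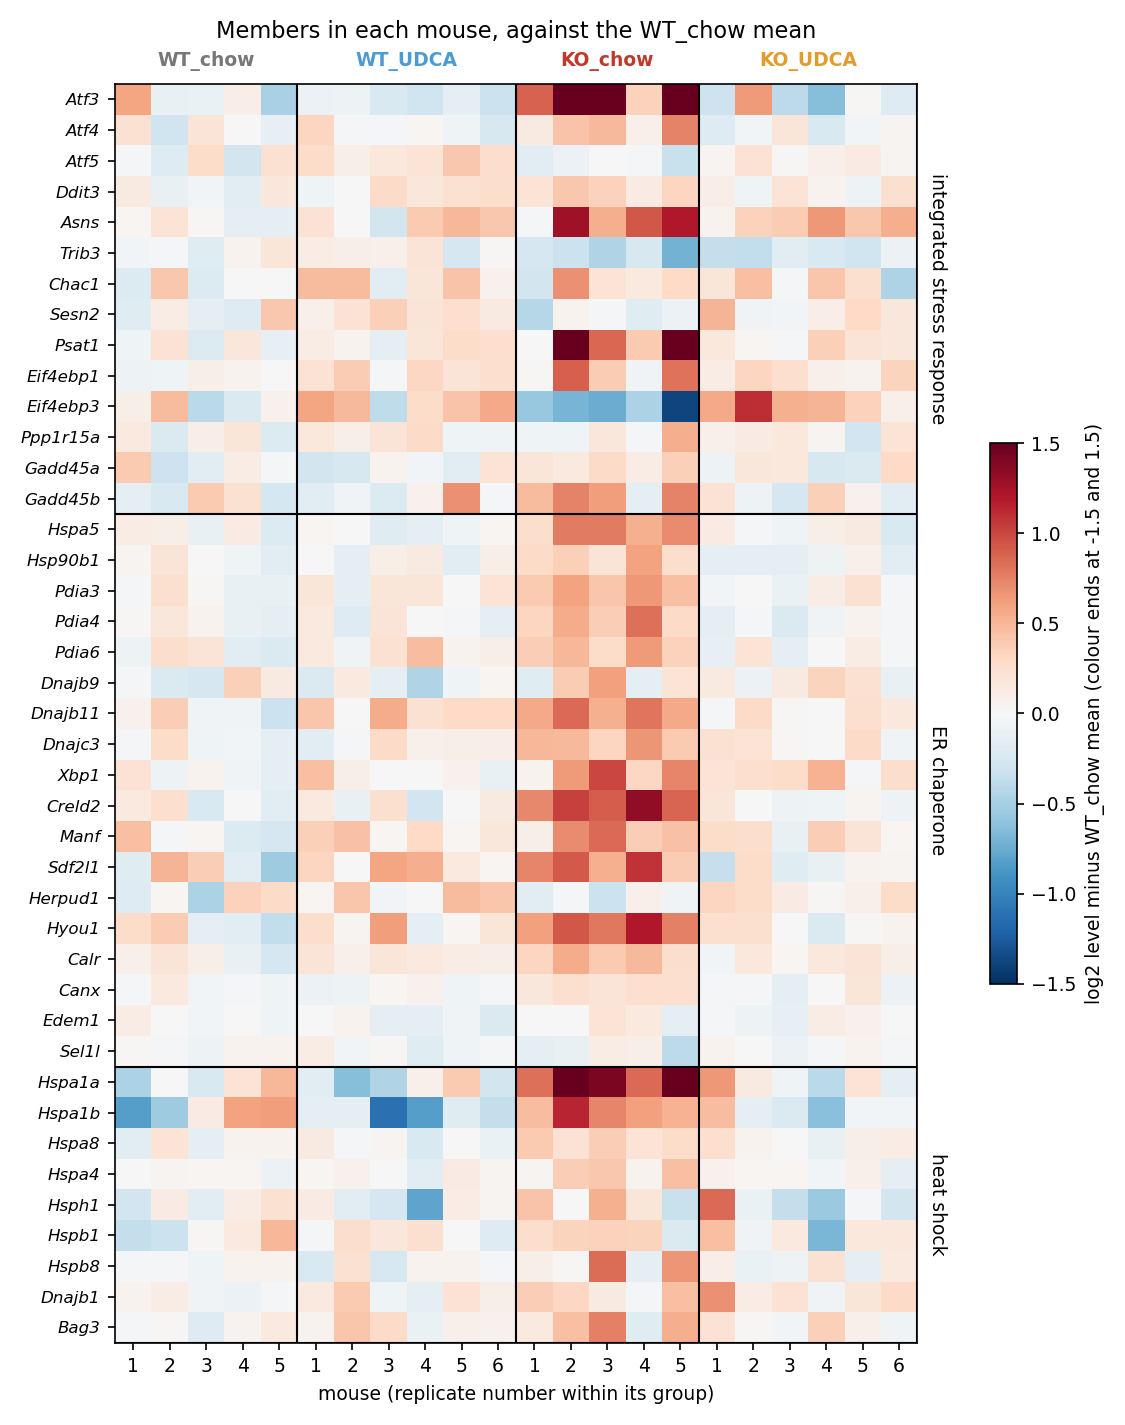
Log2 level of each of the 41 measured genes (rows, grouped by role) in each of the 22 mice (columns, replicate number within the group), minus the WT_chow mean of that gene; the colour ends at -1.5 and 1.5. Most rows of the ER chaperone block are red in all 5 KO_chow mice and near white in the 6 KO_UDCA mice, while the stress response block is darkest in KO_chow mice 2, 3 and 5.

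The Hsp70 system of the ER is given first. Hspa5 encodes BiP, the ER's Hsp70 and the holder of the stress sensors. Its log2 levels were 10.63, 11.15, 11.14, 10.90 and 11.08 in KO_chow mice 1 to 5 and 10.48, 10.45, 10.25, 10.49 and 10.16 in WT_chow mice 1 to 5. The lowest knockout mouse stood above the highest wild-type mouse, and the difference was 0.61 ± 0.10 log2 units (SE), or 1.53-fold, with an adjusted p of 0.00025. Hyou1, the large Hsp70 relative that exchanges BiP's nucleotide, measured 9.37, 9.68, 9.55, 9.96 and 9.51 in KO_chow and 9.03, 9.14, 8.61, 8.60 and 8.39 in WT_chow. It was 1.81-fold higher, again without overlap (adjusted p 0.000369). Sdf2l1, a partner of the J-domain protein Dnajb11, measured 7.54, 7.73, 7.34, 7.89 and 7.19 in KO_chow and 6.63, 7.32, 7.17, 6.64 and 6.27 in WT_chow. Here 1 knockout mouse lay below the highest wild-type mouse, and the difference was 0.73 ± 0.18 (adjusted p 0.00696).

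Of the J-domain proteins that hand clients to BiP, Dnajb11 and Dnajc3 were called and Dnajb9 was not, and the differences between these genes were not tested. Dnajb11 measured 8.15, 8.43, 8.12, 8.39 and 8.16 in KO_chow and 7.65, 7.96, 7.53, 7.53 and 7.26 in WT_chow, 1.59-fold higher and without overlap (adjusted p 0.000408). Dnajc3, which also inhibits eIF2alpha kinases, was higher by 0.47 ± 0.10 with no overlap (adjusted p 0.00223). Dnajb9, a J-domain protein that represses Ire1 and is a classic target of the factor Xbp1, lay between 9.23 and 10.03 in KO_chow and between 9.16 and 9.77 in WT_chow, a difference of 0.18 ± 0.15 that did not pass the test (adjusted p 0.5).

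Among the disulfide enzymes and their relatives, Creld2, an ER protein with reported disulfide isomerase activity, had the lowest adjusted p of the 41 genes. It measured 8.11, 8.41, 8.29, 8.71 and 8.26 in KO_chow and 7.53, 7.64, 7.16, 7.38 and 7.21 in WT_chow. The gap between the groups was 0.97 ± 0.12, or 1.96-fold (adjusted p 4.55e-06). The protein disulfide isomerases Pdia3, Pdia4 and Pdia6 rose too. Of the isomerases outside the members, Txndc5 was called higher, and P4hb and Pdia5 did not pass the test. Pdia3, which works with calnexin and calreticulin, measured 10.07, 10.28, 10.09, 10.32 and 10.12 in KO_chow and 9.65, 9.91, 9.69, 9.56 and 9.56 in WT_chow (1.41-fold, adjusted p 0.000646). Pdia4 measured 10.45, 10.68, 10.49, 10.95 and 10.41 against 10.14, 10.29, 10.18, 10.01 and 9.99 (1.39-fold, adjusted p 0.00282). Pdia6, which also switches off activated Ire1, measured 10.73, 10.86, 10.64, 11.00 and 10.71 against 10.28, 10.63, 10.56, 10.19 and 10.15 (1.34-fold, adjusted p 0.00996). In each of Pdia3, Pdia4 and Pdia6 all 5 knockout mice stood above all 5 wild-type mice. For Pdia6 the margin was the difference between 10.64 and 10.63.

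**Figure D2:**
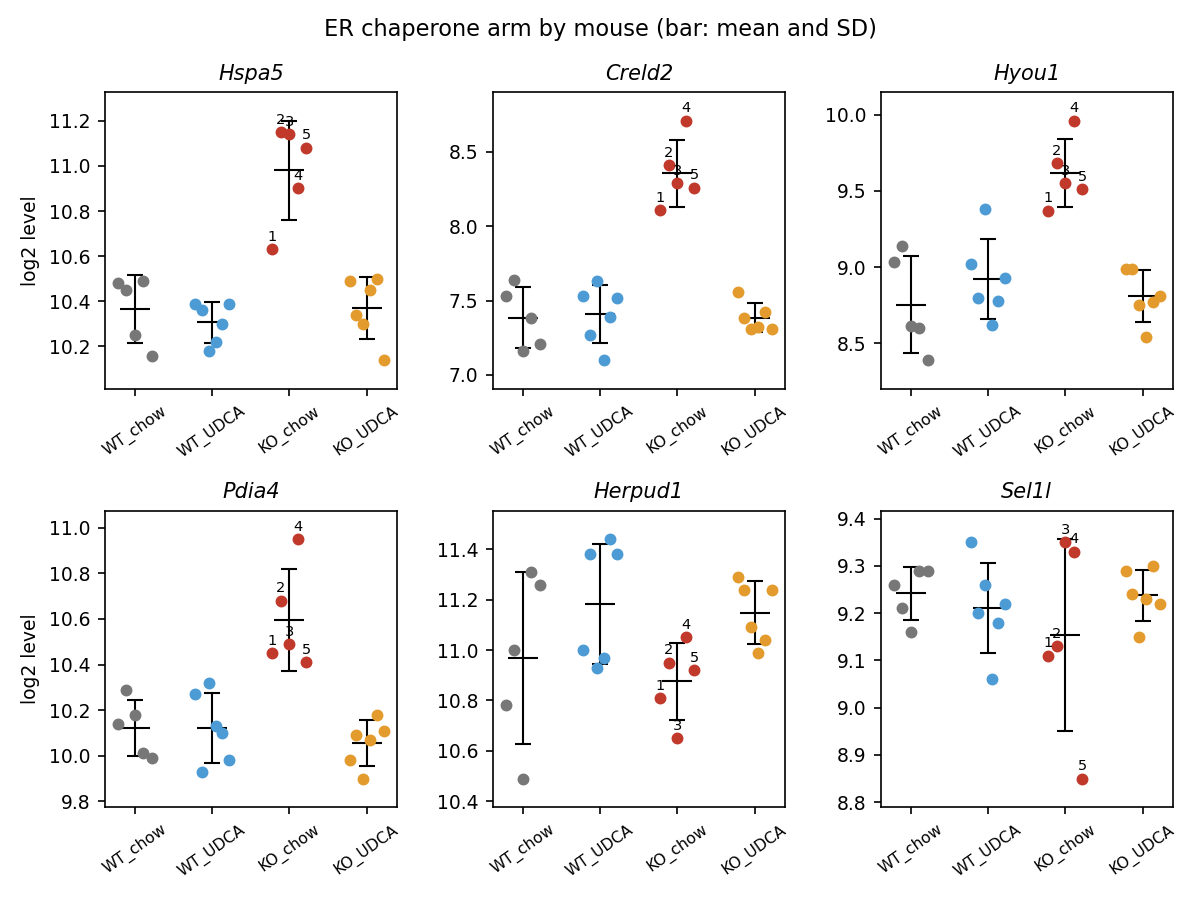
Log2 level (y axis) of 6 ER chaperone genes in each mouse of the 4 groups (x axis); bars give mean and SD, and KO_chow mice carry their replicate numbers. Hspa5, Creld2, Hyou1 and Pdia4 are higher in every KO_chow mouse than in any WT_chow or KO_UDCA mouse, while Herpud1 and Sel1l overlap between all groups.

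The lectin chaperones of glycoproteins, the ER's Hsp90 and the secreted protein Manf were also higher. Calr (calreticulin) was 1.32-fold higher (adjusted p 0.00199) and Hsp90b1, the Hsp90 of the ER, 1.27-fold (adjusted p 0.011), both without overlap. Canx (calnexin) was 1.17-fold higher with no overlap, between 11.11 and 11.20 in KO_chow and between 10.88 and 11.09 in WT_chow, at an adjusted p of 0.0311. That call was lost without KO_chow mouse 2, 4 or 5 or WT_chow mouse 1, 3, 4 or 5 (adjusted p from 0.052 to 0.0719). Manf, a secreted protein that protects stressed cells, was 1.41-fold higher (adjusted p 0.0212), a call lost without KO_chow mouse 2 or 3 or WT_chow mouse 4 or 5 (adjusted p from 0.0605 to 0.0708).

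The transcription factor of the group, Xbp1, whose mRNA is spliced by Ire1, measured 9.16, 9.75, 10.11, 9.42 and 9.84 in KO_chow and 9.33, 9.03, 9.16, 9.06 and 8.97 in WT_chow. Mouse 1 lay inside the wild-type range, and the group was 1.46-fold higher (adjusted p 0.0106). The arrays' summary value does not separate spliced from unspliced Xbp1 mRNA. The 3 members of the removal branch of the ER response, which sends misfolded protein out for degradation, did not pass the test. Among genes of that branch outside the 42, Derl3 did, and Derl1, Derl2, Edem2, Edem3, Os9 and Syvn1 did not. Derl3 had means of 5.77 in KO_chow and 4.84 in WT_chow, and its groups overlapped. Herpud1, a scaffold of that machinery, differed by -0.09 ± 0.14, Edem1, which selects glycoproteins for removal, by 0.04 ± 0.08, and Sel1l, the partner of the ligase Hrd1, by -0.09 ± 0.08. Their adjusted p-values were 0.748, 0.794 and 0.559. With Dnajb9 these were the 4 ER chaperone genes of 18 that were not called, and 11 of the 14 called genes had no overlap between groups (4.84% of all genes were called higher with no overlap).

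**Figure D3:**
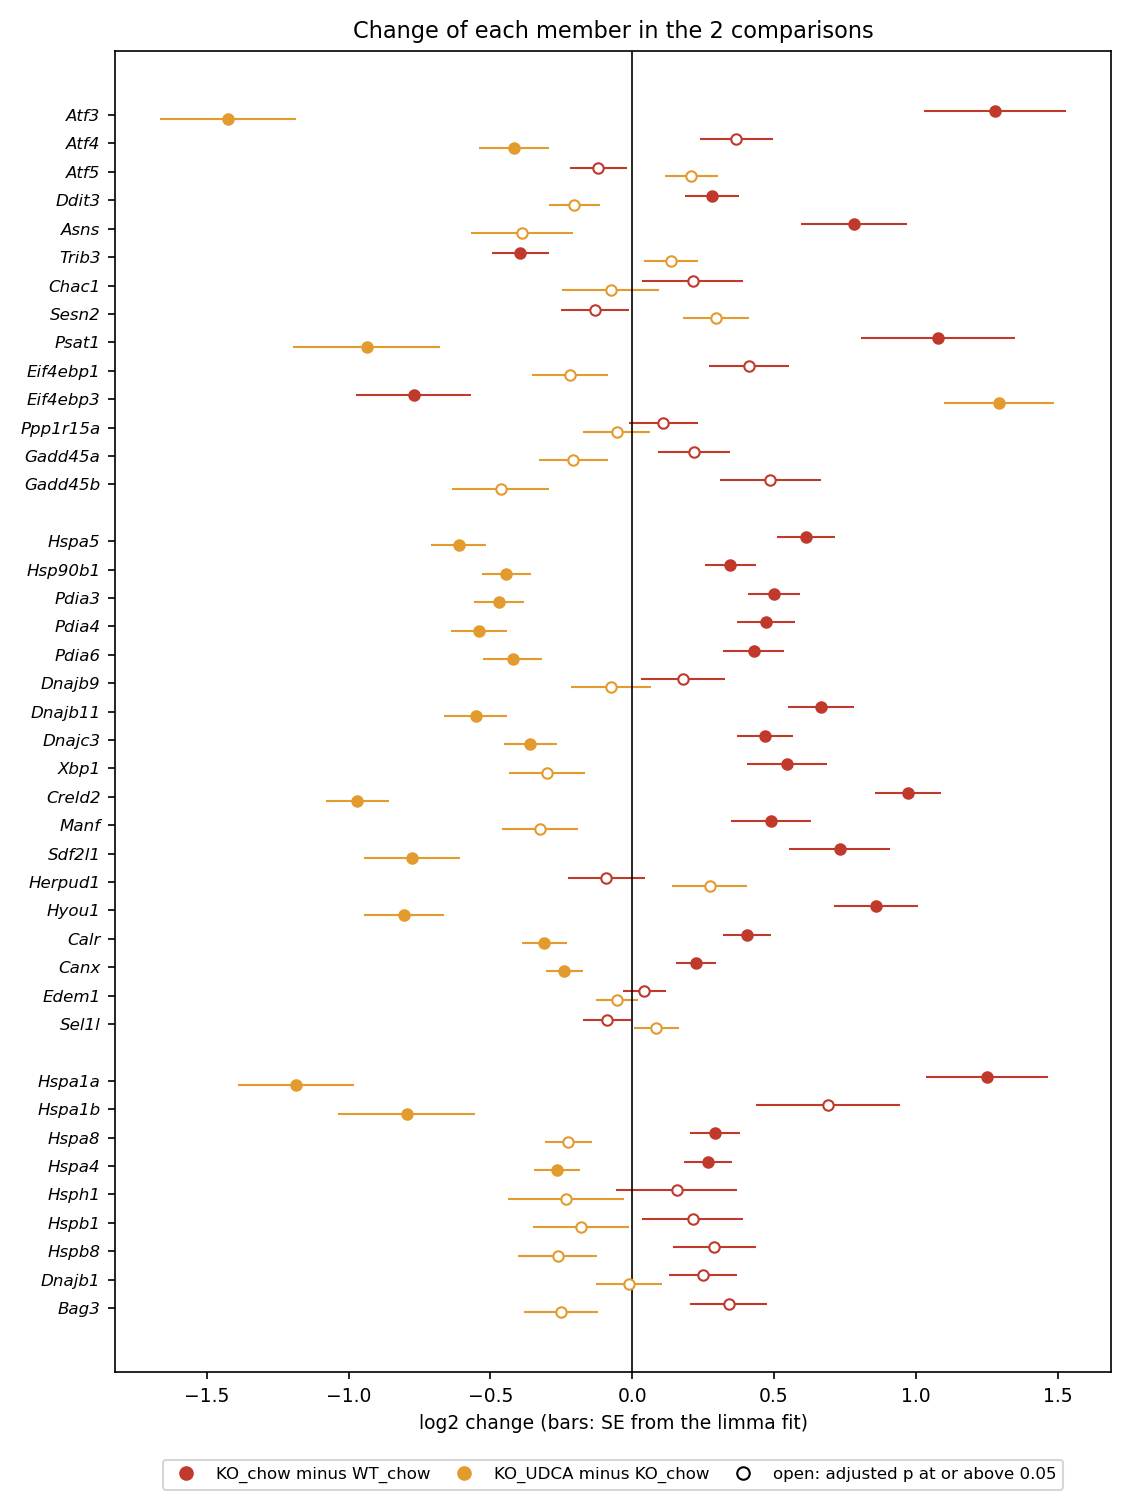
Log2 change (x axis) of each measured gene (y axis, grouped by role) in KO_chow minus WT_chow (red) and KO_UDCA minus KO_chow (orange); bars are standard errors from the limma fit and open circles mark an adjusted p at or above 0.05. Both contrasts share the KO_chow mice. Creld2 stands at 0.97 and -0.97, and Eif4ebp3 and Trib3 lie on the opposite side from Atf3, Asns and Psat1.

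In the integrated stress response group the members moved in opposite directions. Atf3, a factor induced by many stresses and by inflammatory signals, measured 6.67, 7.37, 7.33, 6.13 and 7.83 in KO_chow mice 1 to 5 and 6.38, 5.68, 5.69, 5.89 and 5.30 in WT_chow. The difference was 1.28 ± 0.25, or 2.43-fold (adjusted p 0.00123), and KO_chow mouse 4 lay below the highest wild-type mouse. Asns, the enzyme that makes asparagine, measured 4.21, 5.50, 4.77, 5.16 and 5.43 against 4.26, 4.44, 4.25, 4.10 and 4.10, with mouse 1 at the wild-type level (1.72-fold, adjusted p 0.00648). Psat1, an enzyme of serine synthesis, measured 3.97, 6.18, 4.82, 4.35 and 5.90 against 3.90, 4.18, 3.76, 4.13 and 3.84. Mice 2 and 5 stood far above the others, with mouse 1 inside the wild-type range, and the group difference was 1.08 ± 0.27 (adjusted p 0.00909). Both enzyme genes were dim, since Asns exceeded the array median in 3 of 22 arrays and Psat1 in 2. Ddit3, which encodes the death-linked factor Chop, was 1.22-fold higher at an adjusted p of 0.0475, lost without KO_chow mouse 2, 3 or 5 or WT_chow mouse 2, 3 or 4 (adjusted p from 0.0895 to 0.129).

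The members called lower were Trib3 and Eif4ebp3. Trib3, a pseudokinase that restrains Atf4 and Chop, lay between 5.60 and 6.07 in KO_chow and between 6.13 and 6.49 in WT_chow. The groups did not overlap, and the difference was -0.39 ± 0.10 (adjusted p 0.00943). Eif4ebp3, of the family that blocks cap-dependent translation, measured 6.80, 6.67, 6.63, 6.89 and 5.99 in KO_chow and 7.46, 7.84, 6.96, 7.15 and 7.44 in WT_chow, also without overlap (3.2% of all genes were called lower with no overlap). It was 1.71-fold lower (adjusted p 0.0121), and without KO_chow mouse 5 the call was lost at an adjusted p of 0.050351 and a difference of -0.62.

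The other 8 measured genes of this group did not pass the test. Atf4 itself differed by 0.37 ± 0.13 (adjusted p 0.0593) and Eif4ebp1, the better known relative of Eif4ebp3, by 0.41 ± 0.14 (adjusted p 0.0544). Gadd45b, a stress and growth arrest gene, differed by 0.49 ± 0.18 (adjusted p 0.0745). The others were Atf5, a factor of mitochondrial and amino acid stress, Chac1, which degrades glutathione, Sesn2, a leucine sensor that restrains mTORC1, Ppp1r15a, which reverses eIF2alpha phosphorylation, and Gadd45a. Their differences ran from -0.13 for Sesn2 to 0.22 for Gadd45a, with adjusted p-values from 0.303 to 0.639.

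**Figure D4:**
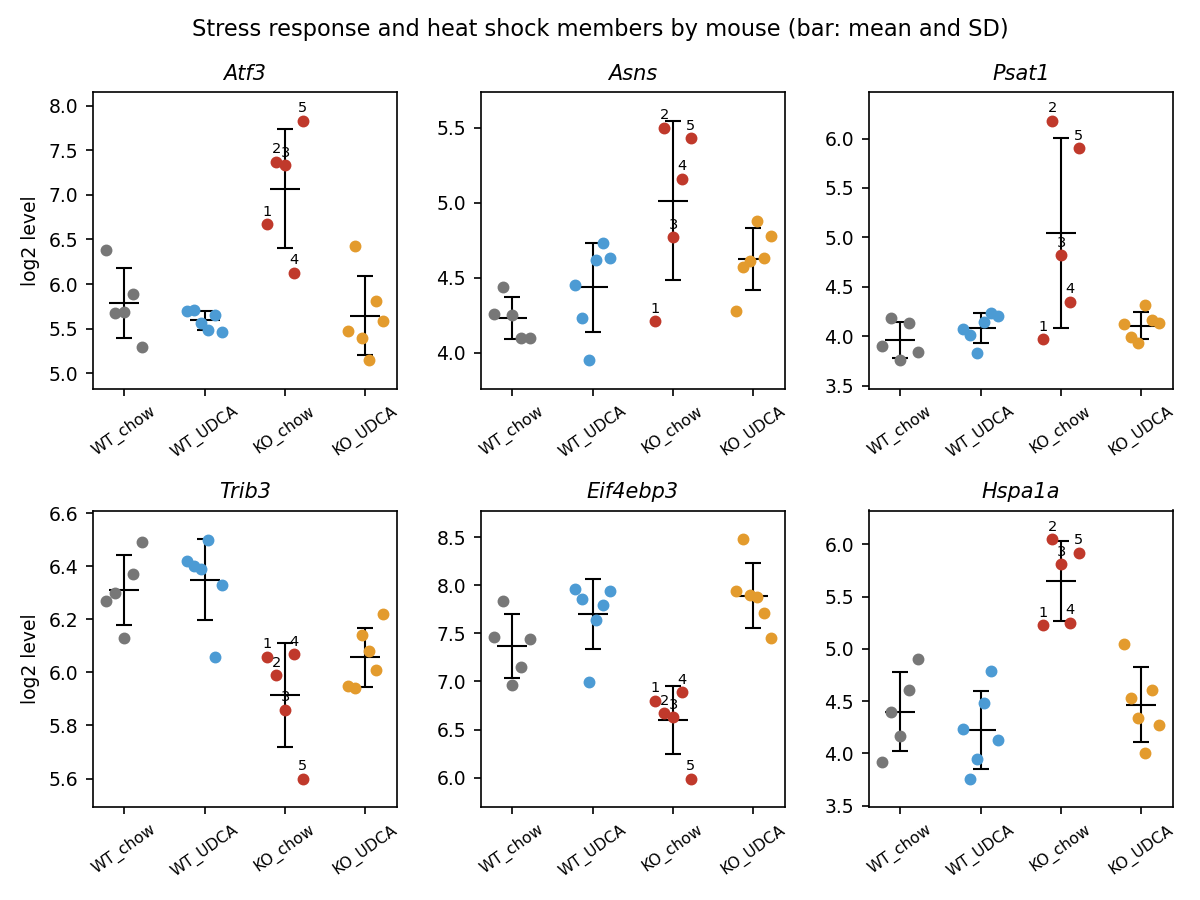
Log2 level (y axis) of 5 integrated stress response genes and of Hspa1a in each mouse of the 4 groups (x axis); bars give mean and SD, and KO_chow mice carry their replicate numbers. Atf3, Asns and Psat1 are spread widely in KO_chow, Trib3 and Eif4ebp3 are lower in every KO_chow mouse than in any WT_chow mouse, and Hspa1a is higher in every KO_chow mouse than in any other.

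Of the heat shock genes, the inducible Hsp70 gene Hspa1a had the largest estimated difference. It measured 5.23, 6.05, 5.81, 5.25 and 5.92 in KO_chow and 3.92, 4.40, 4.17, 4.61 and 4.90 in WT_chow. The groups did not overlap, and the difference was 1.25 ± 0.21, or 2.38-fold (adjusted p 0.00036). Its near-identical copy Hspa1b measured 7.29, 7.98, 7.56, 7.45 and 7.35 against 6.01, 6.30, 6.95, 7.44 and 7.46, so that WT_chow mice 4 and 5 stood at knockout levels. The difference of 0.69 ± 0.25 did not pass the test (adjusted p 0.0751). The sources used here do not say how probes divide signal between these copies, so the split between them is uncertain. Hspa1a exceeded the array median in 7 of 22 arrays.

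The constitutive Hsp70 gene Hspa8 measured 12.44, 12.27, 12.42, 12.25 and 12.33 in KO_chow and 11.88, 12.26, 11.91, 12.10 and 12.10 in WT_chow, 1.22-fold higher (adjusted p 0.0274). Hspa4, an Hsp110 nucleotide exchange factor, was 1.20-fold higher (adjusted p 0.0381), with KO_chow mice 1 and 4 at 8.57 and 8.58 and the highest wild-type mouse at 8.57. Both calls depended on single mice. Hspa8 lost it without KO_chow mouse 1, 3 or 5 or WT_chow mouse 1 or 3 (adjusted p from 0.0516 to 0.0854), and Hspa4 without KO_chow mouse 2, 3 or 5 or any 1 WT_chow mouse (from 0.0535 to 0.12). Hsph1 (Hsp110), the small heat shock proteins Hspb1 and Hspb8, the Hsp40 gene Dnajb1 and the co-chaperone Bag3 did not pass the test, with differences from 0.16 for Hsph1 to 0.34 for Bag3 and adjusted p-values from 0.104 to 0.716.

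The KO_chow mice did not rank alike in the 3 groups of genes. The mean over the 18 ER chaperone genes, relative to WT_chow, was 0.274, 0.522, 0.455, 0.552 and 0.354 in KO_chow mice 1 to 5. Mouse 4, the lowest KO_chow mouse on the first principal component, had the highest mean and the highest level of 9 of the 14 ER chaperone genes called higher. The mean over the 14 integrated stress response genes was 0.009, 0.517, 0.303, 0.069 and 0.464, and mouse 2 or 5 was highest for all 4 genes called higher, mouse 2 for 3 of them and mouse 5 for 1. For the 9 heat shock genes it was 0.335, 0.5, 0.613, 0.206 and 0.429.

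**Figure D5:**
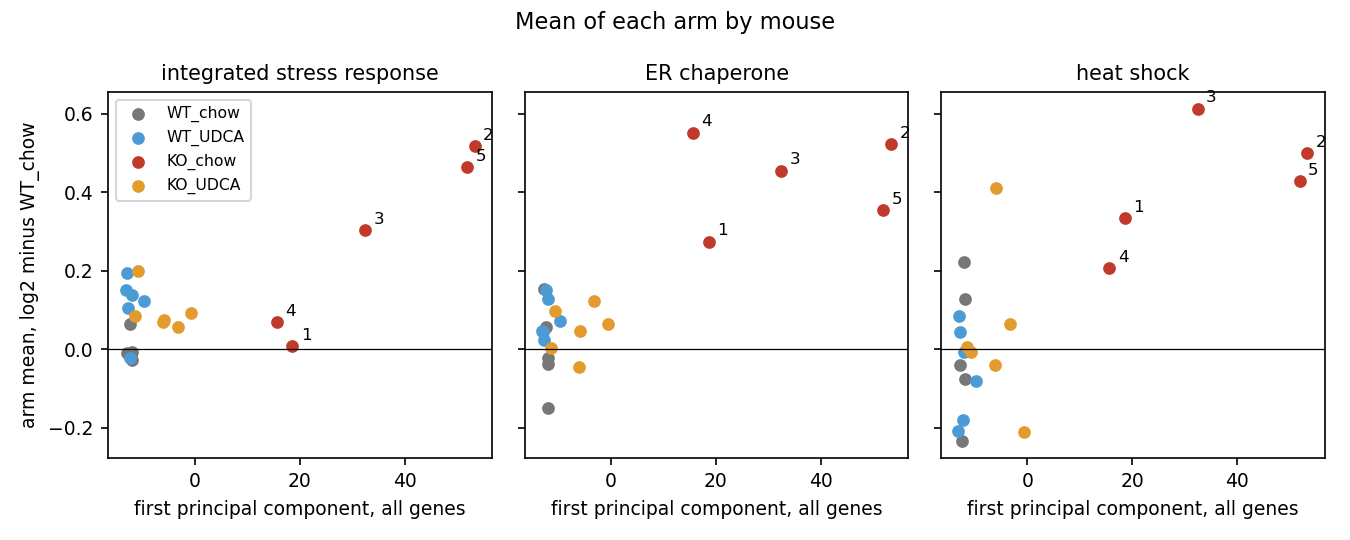
Mean log2 level of each group of genes minus its WT_chow mean (y axis) against the first principal component of all genes (x axis), 1 point per mouse, KO_chow mice numbered. KO_chow mouse 4, at 15.67 on the x axis, has an ER chaperone mean of 0.552 and an integrated stress response mean of 0.069, and mouse 2, at 53.37, has 0.522 and 0.517.

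Genes of other cells moved with these differences, where 7.69% of all genes were called higher and 6.03% lower. In KO_chow vs WT_chow, 8 of 8 cholangiocyte, 8 of 10 macrophage, 7 of 10 fibroblast and stellate cell and 5 of 6 neutrophil markers were higher, while 4 of 6 Kupffer cell markers were lower. Summed intensities lay between 644 and 1274 in KO_chow and between 257 and 286 in WT_chow for cholangiocyte markers, from 1350 to 5757 and from 735 to 862 for macrophage markers, from 2163 to 2761 and from 1166 to 1277 for fibroblast and stellate cell markers, from 110.3 to 205 and from 96 to 101.1 for neutrophil markers, and from 807 to 1061 and from 1293 to 1498 for Kupffer cell markers. Of the defining markers, Cldn7 exceeded the array median in 1 of 5 KO_chow arrays, the neutrophil genes S100a8 in 1 and Retnlg and Ly6g in 0, and 4 lymphocyte genes, Cd8a among them, in 0. No marker had an intensity of 0. Jchain, a marker of plasma cells, had a mean log2 level of 6.01 in KO_chow and 5.55 in WT_chow and did not pass the test. That missing call does not show equal levels. Of the 7 lymphocyte and plasma cell markers Cd8a alone was higher. The macrophage mean relative to WT_chow was 0.967, 2.602, 1.74, 1.033 and 2.178 in KO_chow mice 1 to 5. Immediate early genes, which respond to tissue handling and to growth signals, had means of 0.324, 1.17, 1.182, 0.043 and 1.455. The part of these cells and signals in the members' differences was not tested.

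With KO_chow mice 2 and 5 left out, a choice made after the data were seen, 12 members were called higher in KO_chow and 0 lower, where 3.24% of all genes were called higher and 1.3% lower. They were 10 of the 18 ER chaperone genes, with a group median of 0.447 against 0.471 with all mice, and Atf3 and Hspa1a. Asns fell short at a difference of 0.48 (adjusted p 0.165) and Psat1 at 0.41 (0.13), Trib3 at -0.31 (0.0985) and Eif4ebp3 at -0.59 (0.148). The ER chaperone calls lost were Xbp1 (0.46, adjusted p 0.137), Pdia6 (0.43, 0.0621), Manf (0.44, 0.158) and Canx (0.21, 0.167).

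The other genes of these pathways, on lists chosen by function, were called in part. Over all genes, 7.69% were called higher and 6.03% lower in KO_chow. Of 16 measured stress sensors and regulators, 5 were higher and 1 lower in KO_chow. Eif2ak3, which encodes Perk, was 1.90-fold higher (adjusted p 0.00719), the stress-induced regulator Nupr1 1.79-fold (adjusted p 0.0129) and Cebpg, a dimer partner of Atf4, 1.30-fold (adjusted p 0.00275), while Eif2ak1, the haem-regulated eIF2alpha kinase, was 1.33-fold lower (adjusted p 0.0118). Of 5 secreted and growth-regulating targets, the hormone gene Fgf21 was 1.59-fold higher (adjusted p 0.0195) and the lipoprotein receptor Vldlr 1.99-fold lower (adjusted p 0.00311). Genes of amino acid transport and tRNA charging were higher where they were called. Among 10 transporters 4 were higher and 0 lower, namely the cystine carrier Slc7a11 (2.43-fold, adjusted p 0.00108), Slc1a5 (1.61-fold), Slc7a1 (1.55-fold) and Slc3a2 (1.45-fold). Slc7a11, Slc7a1 and Slc1a5 were dim, with WT_chow means of 3.08, 4.49 and 4.75, below the median gene of every WT_chow array. The brighter Slc38a2, Slc38a4 and Slc7a2, with WT_chow means of 10.3, 11.6 and 10.5, did not pass the test. Intensities summed over the transporters overlapped (KO_chow 5854 to 6576, WT_chow 6009 to 6986). Among 12 aminoacyl-tRNA synthetases 4 were higher and 0 lower, namely Gars (1.36-fold), Sars (1.33-fold), Nars (1.32-fold) and Iars (1.29-fold). The enzymes of serine, glycine and folate metabolism split, with 2 higher and 3 lower of 11. The mitochondrial folate enzyme Mthfd2 was 2.26-fold higher (adjusted p 0.00197) and the proline enzyme Aldh18a1 1.77-fold, whereas the serine hydroxymethyltransferases Shmt1 and Shmt2 were lower by 1.71-fold (adjusted p 0.000273) and 1.66-fold (adjusted p 0.000852).

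Protein export and folding genes outside the 42 gave smaller counts, beside 7.69% of all genes called higher and 6.03% lower. Of 16 genes of ER-associated degradation and translocation, 4 were higher and 0 lower. These were Derl3, a Derlin of the removal route (1.91-fold, adjusted p 0.0139), the translocon genes Ssr1 (1.38-fold), Sec61a1 (1.34-fold) and Ssr3 (1.26-fold). Of 12 ER folding enzymes 2 were higher, the glycoprotein folding sensor Uggt1 (1.24-fold) and the disulfide isomerase Txndc5 (1.19-fold). Of 14 other chaperones 3 were higher, led by Serpinh1, the collagen chaperone (1.96-fold, adjusted p 4.09e-06), followed by Hspa4l (1.41-fold) and Cryab (1.28-fold). Of 10 immediate early genes Ier3 (3.68-fold), Klf6 (3.11-fold) and Fosb (2.13-fold) were higher, and of 12 clock genes Nr1d1 was lower (1.68-fold). The clock genes were thus called at 8.33%, near the share of all genes.

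UDCA in the knockout went with lower ER chaperone levels. Between KO_UDCA and KO_chow, 18 of the 41 members were lower (6.22% of all genes were called lower) and 1 was higher (5.03% of all genes), with a median of -0.264 against 0.033 over all genes. The 18 were 12 of 18 ER chaperone genes, 3 of 14 integrated stress response genes and 3 of 9 heat shock genes. This comparison shares the KO_chow mice with the one above, so the values are given side by side with no test of their likeness.

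Creld2 ran from 7.31 to 7.56, with a median of 7.35, in the 6 KO_UDCA mice, against 8.11 to 8.71 in KO_chow. The change was -0.97 ± 0.11 (adjusted p 5.42e-06), and the KO_UDCA mean of 7.39 ± 0.10 (SD, n = 6) stood beside the WT_chow mean of 7.38 ± 0.21 (SD, n = 5). Hspa5 ran from 10.14 to 10.50, median 10.40, a change of -0.61 ± 0.10 (adjusted p 0.00021). Hyou1 ran from 8.54 to 8.99, median 8.79, a change of -0.80 ± 0.14 (adjusted p 0.000656). In all 3 genes every KO_UDCA mouse lay below every KO_chow mouse. Sdf2l1 ran from 6.46 to 7.08 (median 6.77) and fell by 0.78 (adjusted p 0.00414), and Dnajb11 ran from 7.56 to 7.87 (median 7.67) and fell by 0.55 (adjusted p 0.00206).

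The isomerases Pdia3, Pdia4 and Pdia6 fell with them. Of the isomerases outside the members, Txndc5 was called lower, and P4hb and Pdia5 did not pass the test. Pdia3 ran from 9.58 to 9.90 (median 9.66; change -0.47 ± 0.09, adjusted p 0.00103), Pdia4 from 9.90 to 10.18 (median 10.08; change -0.54 ± 0.10, adjusted p 0.000807) and Pdia6 from 10.23 to 10.57 (median 10.35; change -0.42 ± 0.10, adjusted p 0.00993). Hsp90b1 was 1.36-fold lower (adjusted p 0.00147) and Dnajc3 1.28-fold (adjusted p 0.0147). The lectin chaperones Calr and Canx were 1.24-fold and 1.18-fold lower, and these calls were lost without KO_chow mouse 2 (Calr, adjusted p 0.0514) and without KO_chow mouse 5 or KO_UDCA mouse 3 (Canx, 0.0548 at most). Of the 12 called genes, 11 had no overlap between the groups, Canx being the exception (3.07% of all genes were called lower with no overlap). Xbp1, from 9.09 to 9.63 in KO_UDCA (median 9.37), and Manf did not pass the test, with changes of -0.30 ± 0.14 (adjusted p 0.17) and -0.33 ± 0.14 (0.133). Dnajb9, Herpud1, Edem1 and Sel1l were not called, with changes from -0.08 to 0.27 and adjusted p-values from 0.206 to 0.816.

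Among the stress response factors, Atf3 ran from 5.15 to 6.43 in KO_UDCA, median 5.53, a change of -1.42 ± 0.24 or 2.68-fold (adjusted p 0.000408). Its highest KO_UDCA mouse, at 6.43, lay above KO_chow mouse 4. Psat1 ran from 3.93 to 4.32 (median 4.12), a change of -0.94 ± 0.26 (adjusted p 0.0205) that lost its call without KO_chow mouse 2 or 5 (0.082 and 0.0882). Atf4 was 1.33-fold lower (adjusted p 0.0288), lost without KO_UDCA mouse 1 or 4 or KO_chow mouse 2, 3 or 5 (from 0.0607 to 0.114). Eif4ebp3 was the gene that went up. It ran from 7.45 to 8.48 (median 7.89), above every KO_chow mouse, a change of 1.29 ± 0.19 or 2.45-fold (adjusted p 0.000122). Trib3 and Asns, both called in KO_chow vs WT_chow, did not pass the test here, with changes of 0.14 ± 0.10 (adjusted p 0.419) and -0.39 ± 0.18 (0.184), and Asns ran from 4.28 to 4.88 (median 4.62).

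In the heat shock group Hspa1a ran from 4.00 to 5.05 (median 4.43) and was 2.27-fold lower (adjusted p 0.000553), with every KO_UDCA mouse below every KO_chow mouse. Hspa1b ran from 6.20 to 7.29 (median 6.73) and was 1.74-fold lower (adjusted p 0.0347). That call was lost without KO_chow mouse 2, 3 or 5 or KO_UDCA mouse 2, 3, 4 or 6 (from 0.0545 to 0.116). Hspa4 was 1.20-fold lower (adjusted p 0.0368) and lost its call without the same 7 mice in turn (from 0.0514 to 0.126). Hspa8 ran from 11.94 to 12.30 (median 12.12) and did not pass the test (-0.23 ± 0.08, adjusted p 0.0895). The other 5 genes were not called, with changes from -0.26 to -0.01.

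With KO_chow mice 2 and 5 left out, 11 members were called in KO_UDCA vs KO_chow, 8 of them ER chaperone genes, with a group median of -0.404 against -0.39, and 2.8% of all genes were called. Atf3, Hspa1a and Eif4ebp3 were the others. Psat1 then differed by -0.27 (adjusted p 0.385), Atf4 by -0.28 (0.32) and Hspa1b by -0.70 (0.228). The ER chaperone calls lost were Pdia6, Dnajc3, Calr and Canx (adjusted p 0.0748, 0.0733, 0.0703 and 0.147). Hspa4 was lost too (-0.17, adjusted p 0.389).

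Pathway genes outside the 42 were called as follows in KO_UDCA vs KO_chow, where 6.22% of all genes were called lower and 5.03% higher. Of the stress sensors, Perk's gene Eif2ak3 (1.82-fold), the interferon-induced kinase Eif2ak2 (1.28-fold) and the amino acid sensor Eif2ak4 (1.21-fold) were lower and Eif2ak1 was higher (1.31-fold), with adjusted p-values of 0.0107, 0.0224, 0.0199 and 0.0165. Slc7a11 (2.22-fold), Slc7a1 (1.49-fold) and Slc3a2 (1.34-fold) were lower among 10 transporters, and Nars (1.41-fold), Lars (1.29-fold) and Gars (1.29-fold) among 12 synthetases. Mthfd2 was 1.99-fold lower and Aldh18a1 1.44-fold lower, while Shmt1 (1.58-fold), Got1 (1.53-fold) and Shmt2 (1.46-fold) were higher. Derl3 (1.95-fold), Ssr1 (1.32-fold) and Ssr3 (1.27-fold) were lower among the 16 degradation and translocation genes, Hspa13 (1.35-fold), Fkbp11 (1.31-fold) and Txndc5 (1.22-fold) among the 12 folding enzymes, and Serpinh1 (1.66-fold), Hspa4l (1.49-fold) and Dnajb4 (1.23-fold) among the 14 other chaperones. Of the 5 secreted and growth-regulating targets, the cell cycle inhibitor Cdkn1a was 2.19-fold lower and Vldlr 1.70-fold higher. Among the immediate early genes 5 of 10 were lower, led by Ier3 (3.21-fold), Klf6 (3.18-fold) and Fos (2.49-fold). In the same comparison 8 of 8 cholangiocyte, 8 of 10 macrophage, 6 of 10 fibroblast and stellate cell and 4 of 6 neutrophil markers were lower and 4 of 6 Kupffer cell markers higher, and 0 of 8 hepatocyte markers were called. Summed intensities in KO_UDCA were 282 to 420 for cholangiocyte, 764 to 1064 for macrophage, 1173 to 1771 for fibroblast and stellate cell, 98.3 to 109.1 for neutrophil and 1128 to 1856 for Kupffer cell markers. Their part in the members' changes was not tested.

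Whether UDCA acted differently in knockout and wild-type mice was tested as the genotype by diet interaction. Of the 41 members 10 were called, all lower (2.07% of all genes were called lower and 0.6% higher), meaning that UDCA went with a more negative change in the knockout. All 10 were ER chaperone genes. The differences were largest for Sdf2l1 (-1.05 ± 0.24, adjusted p 0.0199), Creld2 (-0.99 ± 0.16, adjusted p 0.00109), Hyou1 (-0.97 ± 0.20, adjusted p 0.0103) and Dnajb11 (-0.85 ± 0.16, adjusted p 0.00418). Pdia6, Pdia3, Hspa5, Pdia4, Hsp90b1 and Calr ran from -0.58 to -0.44, with adjusted p-values from 0.013 to 0.049997. The first 4 calls and that of Pdia3 held without any 1 of the 22 arrays, whereas those of Hspa5, Pdia4, Pdia6, Hsp90b1 and Calr were each lost without any 1 of 10 to 16 arrays (adjusted p up to 0.0984). Without KO_chow mice 2 and 5, 4 members were called, and 0.862% of all genes. Atf3 (-1.23 ± 0.34, adjusted p 0.051), Eif4ebp3 (0.97 ± 0.28, adjusted p 0.0602) and Hspa1a (-1.01 ± 0.29, adjusted p 0.0626) did not pass the test.

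In wild-type mice UDCA changed 0 of the 41 members by limma at the adjusted threshold (0% of all genes were called higher and 0% lower), and 2 had an unadjusted p below 0.05. These were Dnajb11, higher by 0.30 ± 0.11 (adjusted p 0.791), and Atf5, higher by 0.23 ± 0.10 (adjusted p 0.857). Creld2 ran from 7.10 to 7.63 in WT_UDCA (median 7.45), Hspa5 from 10.18 to 10.39 (median 10.33), Hyou1 from 8.62 to 9.38 (median 8.86) and Hspa1a from 3.76 to 4.79 (median 4.18). These ranges overlapped those of WT_chow. Atf3 ran from 5.46 to 5.71 (median 5.61), Psat1 from 3.83 to 4.24 (median 4.10), Asns from 3.95 to 4.73 (median 4.53) and Eif4ebp3 from 6.99 to 7.96 (median 7.83).

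The last comparisons set the UDCA-fed knockout against both wild-type groups. Against WT_UDCA, 0 members were called by limma (0% of all genes higher and 0.0167% lower) and 1, Trib3, had an unadjusted p below 0.05, at -0.29 ± 0.09 (adjusted p 0.697). It ran from 5.94 to 6.22 in KO_UDCA and from 6.06 to 6.50 in WT_UDCA. Against WT_chow, 0 members were called (0.00416% of all genes higher and 0.0208% lower) and 4 had an unadjusted p below 0.05. They were Eif4ebp3 at 0.52 ± 0.19, Asns at 0.39 ± 0.18, Trib3 at -0.26 ± 0.10 and Dnajb1 at 0.24 ± 0.12, with adjusted p-values from 0.718 to 0.882. Group medians over the ER chaperone genes were -0.036 against WT_UDCA and 0.018 against WT_chow. Against WT_chow, Hspa5 differed by 0.00 ± 0.10, Creld2 by 0.00 ± 0.11, Hspa1a by 0.07 ± 0.21 and Atf3 by -0.14 ± 0.24, and a missing call does not show that levels were equal.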

How the data were processed

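Per the labels, the authors deposited RMA-PLM intensity values on the unlogged scale, 1 array per mouse. The submitters' processing notes name RMA, and no genome build was found in the sources used here. There were 24973 rows. The platform annotation gave 24015 of them 1 symbol and 958 none, and where a symbol stood on several rows (4 symbols, none a member) the brightest was kept, leaving 24011 genes. Median intensities ran from 28.76 to 31.13 per array. The number of arrays limits the precision.

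Intensities were converted to log2 with no pseudocount or filter and fitted with limma 3.58.1 in R 4.3.3, a mean per group over all 22 arrays. Tests are two-sided, p-values were adjusted by Benjamini and Hochberg's method over the 24011 genes in each of 6 comparisons, and errors of differences are SE of the fit. The scripts were tested on simulated data. Each array is a separate mouse, and p-values rest on the spread among mice. That spread was shared over the 4 groups of the fit, also where the groups differed in it. For Psat1 the SD was 0.96 in KO_chow and between 0.14 and 0.18 in the other groups.

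The members and lists were chosen with earlier results of these data known. Values in every KO_chow and WT_chow mouse, with ranges and medians in the UDCA-fed groups where their comparisons are described, are given for members called in a comparison with a log2 change of 0.5 or more in size and for the 2 of each group with the lowest p in KO_chow vs WT_chow, and up to 4 called genes of each other list are named. Some list symbols matched no row and are not analysed here. Alternatives were the samples fitted, a filter on dim genes, quantile normalization, array and group weights, trended moderation, an offset, averaged rows and leaving out arrays. Promoter sequences are RefSeq's (GRCm38.p6), used with names only.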

Additional observations from a re-analysis of the deposited data

Results flagged for a closer look

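The genotype by diet interaction was called by limma for 10 ER chaperone genes, at log2 values of -0.55 for Hspa5, -0.44 for Hsp90b1, -0.57 for Pdia3, -0.54 for Pdia4, -0.58 for Pdia6, -0.85 for Dnajb11, -0.99 for Creld2, -1.05 for Sdf2l1, -0.97 for Hyou1 and -0.44 for Calr. Each says that the UDCA difference was more negative in knockout than in wild-type mice.

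Single mice stood apart from their group in 8 of 164 sets of values, where chance sets apart about 1 in 20. The Eif4ebp3 level of WT_UDCA mouse 3 was 6.99, below the next mouse at 7.64. Gadd45b in WT_UDCA mouse 5 was 6.44, above the next at 5.82, and Xbp1 in WT_UDCA mouse 1 was 9.56, above 9.20. In KO_UDCA, Ppp1r15a of mouse 5 was 5.27, below 5.60, Hsp90b1 of mouse 5 was 11.47, above 11.31, and Hsph1 of mouse 1 was 8.08, above 7.20. Canx of WT_chow mouse 2 was 11.09, above 10.93, and Hspb1 of KO_chow mouse 5 was 4.92, below 5.40.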

How the results depend on the processing

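The 23 members called in KO_chow vs WT_chow became 15 when only the groups compared entered the fit (10 of them ER chaperone genes), and 12 without KO_chow mice 2 and 5, while the share of all genes called went from 13.7% to 8.36% and 4.54%. The 19 in KO_UDCA vs KO_chow became 11, and the 10 of the interaction became 4, without those mice, with 11.2% and 2.67% of all genes called becoming 2.8% and 0.862%. Leaving out single arrays gave 18 to 26, 14 to 22 and 5 to 16 members in these comparisons. The cause was not tested. No called difference of a member changed sign in any alternative run. The comparisons without KO_chow gave 0 members in every alternative run. In KO_chow vs WT_chow, Ddit3 lost its call in 12 of 19 alternatives, Hspa4 in 11 and Canx in 9, and of the dim genes Hspa1a lost it in 0 of 19, Asns in 1 of 18 and Psat1 in 2 of 18. For the interaction no fit to fewer groups was run, since it uses all 4. No paired analysis was possible because the replicate numbers follow the order of the records and pair nothing.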
